A study of Homo sapiens with 4 samples.

Results

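The miR-17~92 polycistron is a group of 6 microRNA hairpins cut from one primary transcript, and it was followed here in HFE-145, a line of immortalised epithelial cells from human stomach. The members were 10 mature miRNAs, taken by name from a deposited table of 2039 human miRNAs: hsa-miR-17-5p, hsa-miR-17-3p, hsa-miR-18a-5p, hsa-miR-18a-3p, hsa-miR-19a-3p, hsa-miR-19b-3p, hsa-miR-20a-5p, hsa-miR-20a-3p, hsa-miR-92a-3p and hsa-miR-92a-1-5p, written below without the species prefix. All 10 had reads in all 4 libraries. With edgeR's TMM scaling, described below, miR-17-5p and miR-20a-5p, which share a seed, were lower in YAP5SA cells. They stood at 0.505 and 0.452 times their mean vector level, and miR-92a-3p, the most abundant member, at 0.919 times. With library totals the log2 fold changes were, in the same order, -0.48, -0.62 and 0.47. Under scaling on abundant miRNAs they were -0.31, -0.46 and 0.599. The sizes, and the sign for miR-92a-3p, thus depended on the scaling. No member passed the test over the whole table.

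There were 2 groups of 2 samples of this line. The first overexpressed YAP5SA, a form of the Hippo pathway effector YAP in which the serines phosphorylated by the LATS kinases are replaced by alanine, and the second carried the vector. The labels call the samples duplicates and name no time, clone or drug, and they do not say that the cultures were separate. The p-values therefore rest on differences among these samples that may be technical only. The total was 136903 and 191954 counts in YAP5SA replicates 1 and 2, and 217235 and 195283 counts in vector replicates 1 and 2. The 10 members took 0.896% and 0.418% of the counts in the YAP5SA libraries, and 0.522% and 0.567% in the vector libraries. YAP5SA replicate 1 had the largest share and YAP5SA replicate 2 the smallest.

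The label of an epithelial line was set against marker miRNAs. All 7 epithelial markers, the miR-200 family with miR-203a and miR-205-5p, were read, and their summed level was 12076 and 15114 CPM in the YAP5SA libraries, against 29164 and 25669 CPM in the vector libraries. CPM are read counts scaled to library size after edgeR's TMM scaling, which sets library sizes so that most miRNAs keep the same level. The 4 gastrointestinal markers summed to 427 to 602 CPM over the 4 libraries, the 6 blood markers to 288 to 596 CPM, the 5 mesenchymal markers to 110 to 250 CPM, the 2 endothelial markers to 26.4 to 170 CPM, the 4 muscle markers to 52.6 to 216 CPM and the 3 neural markers to 65.7 to 152 CPM. No marker was at 0 in every library. The 8 embryonic stem cell markers summed to 238016 and 372357 CPM in the YAP5SA libraries and 342856 and 391640 CPM in the vector libraries. That sum includes miR-372, which alone took 28.97% and 35.3% of the counts in the YAP5SA libraries and 28.5% and 29.3% in the vector libraries, while miR-367-3p, another of the 8, had 9 and 1 counts in YAP5SA cells and 2 and 1 counts in vector cells. The summed epithelial level, on the TMM scale, thus moved with the group, which does not show that each marker moved. The part of the epithelial markers in the results below was not tested. The gastrointestinal, blood, mesenchymal, endothelial and muscle sums were each highest in YAP5SA replicate 1. In bulk samples, fewer cells of a type and less RNA per cell cannot be told apart.

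A miRNA is cut from a hairpin by Drosha and Dicer, and one arm, the guide, is usually kept in Argonaute while the other, the passenger, is mostly lost. The guide recognises target mRNAs mainly through its seed, bases 2 to 8 from the 5′ end. The miR-17~92 transcript, also called oncomiR-1, is known as a target of MYC and E2F. Its miR-17 and miR-20a products restrain the cell cycle inhibitor CDKN1A, and the cluster is often amplified or raised in tumours, gastric cancers among them. The hairpins lie on the forward strand of chromosome 13, at chr13:91350605-91351391 of GRCh38.p14, a stretch of 787 bases inside the host gene MIR17HG. Of 3 MIR17HG transcripts in GENCODE 29, the hairpins overlapped an exon of 2 and lay in an intron of 1. Their order is MIR17, MIR18A, MIR19A, MIR20A, MIR19B1 and MIR92A1.

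The 6 guide strands fall into 4 seed groups, and their mature sequences are shown because every comparison below is made by seed. They come from RefSeq on GRCh38.p14, where all 12 arms of the 6 hairpins were found by name with the sequence given in the deposited table. Capitals mark the seed.
miR-17-5p: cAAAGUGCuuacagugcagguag
miR-20a-5p: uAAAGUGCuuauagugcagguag
miR-18a-5p: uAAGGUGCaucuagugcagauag
miR-19a-3p: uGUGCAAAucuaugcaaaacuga
miR-19b-3p: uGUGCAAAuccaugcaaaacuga
miR-92a-3p: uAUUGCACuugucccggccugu
Counted from 1 at the 5′ end of the miRNA named first, miR-17-5p and miR-20a-5p differ by C1U and C12U, and miR-19a-3p and miR-19b-3p differ by U11C alone. The miR-18a seed differs from the miR-17 seed by 1 base within the same frame, and is a separate family. A pair of guides does not belong to chromosome 13 alone: miR-19b-3p also comes from MIR19B2 and miR-92a-3p also from MIR92A2, both on chromosome X. Their counts cannot be assigned to either locus from mature reads.

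The members differed in level far more than any of them differed between the groups. On TMM CPM averaged over the 4 libraries, miR-92a-3p came first at 4778 CPM and ranked 29 among the 2039 miRNAs. miR-17-5p followed at 548 CPM (rank 93), miR-20a-5p at 263 CPM (rank 146) and miR-19b-3p at 149 CPM (rank 212). The library ranges of miR-92a-3p (3260 to 5890 CPM) and miR-17-5p (364 to 819 CPM) did not meet, whereas those of miR-17-5p and miR-20a-5p (157 to 381 CPM) did, as did those of miR-20a-5p and miR-19b-3p (114 to 210 CPM). All members are 22 or 23 bases long, so levels need no correction for length. Within each library the order of miR-17-5p, miR-20a-5p and miR-19b-3p was nevertheless the same. The other 6 members, miR-18a-5p, miR-20a-3p, miR-18a-3p, miR-19a-3p, miR-17-3p and miR-92a-1-5p, averaged 47.5 to 73.9 CPM, and each of these neighbours overlapped the next over the libraries. At these levels 1 count was worth 5.23 to 6.57 CPM, so the low members rest on 2 to 22 reads a library. Levels of different miRNAs also carry the ligation bias of small RNA libraries, which was not measured here.

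**Figure D1:**
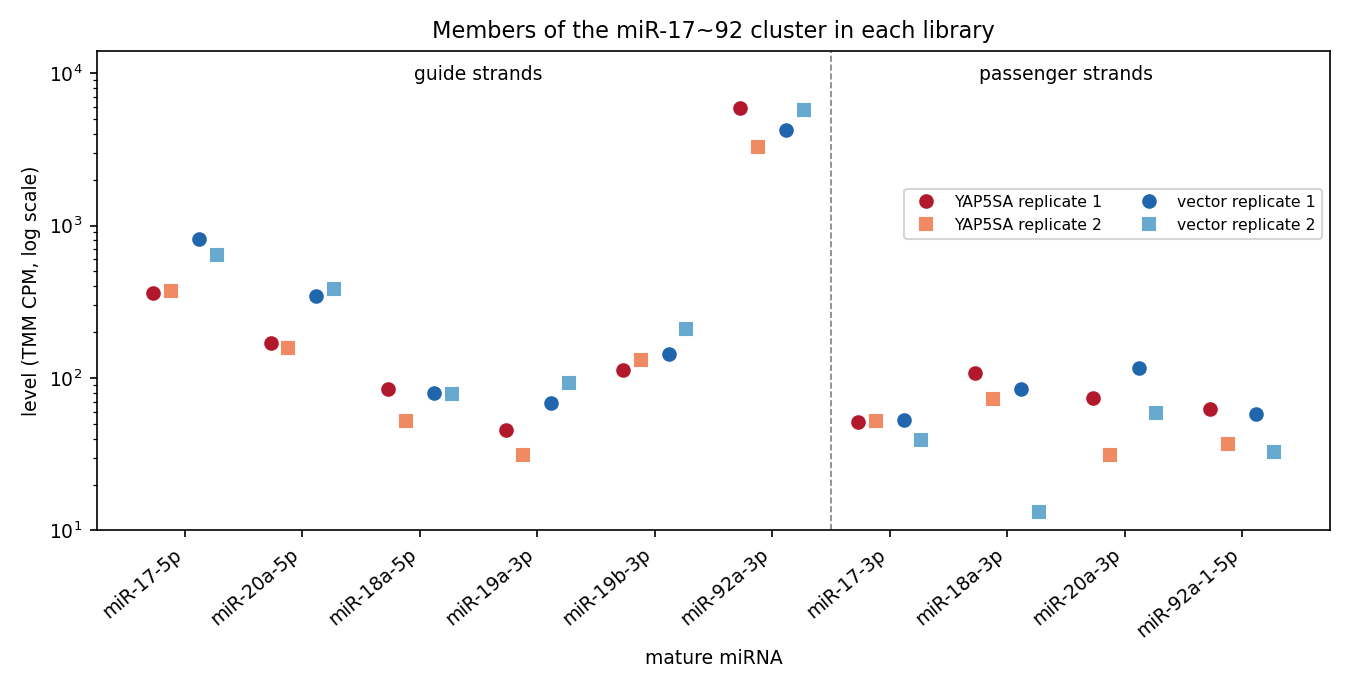
Level of the 10 members in each library, as TMM CPM on a log axis, with guide strands on the left and passenger strands on the right; each point is 1 library. The YAP5SA points of miR-17-5p (364 and 371.6 CPM) and miR-20a-5p (170 and 157 CPM) sit below both vector points, while the miR-92a-3p points of the groups are interleaved.

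The comparison of YAP5SA with vector cells asked whether the active YAP mutant changed the cluster's miRNAs. Of the 10 members, 9 passed edgeR's filter on low counts, and miR-92a-1-5p did not. Of these 9, 0 were called lower and 0 higher by edgeR's quasi-likelihood test, with p-values adjusted by Benjamini-Hochberg over the 602 miRNAs tested, where 3.49% were called lower and 11.8% higher. DESeq2 also called 0 of the 9, against 2.99% lower and 5.98% higher over the table. At an unadjusted p under 0.05 edgeR had 2 members lower and 0 higher, beside 11.5% lower and 21.8% higher over all tested. The log2 fold change was under 0 for 7 of the 9 members, beside 273 of the 602 miRNAs tested. The member median was -0.52, against a median of 0.11 over all tested miRNAs. A change of scaling shifts all miRNAs together, so the member median less that of all miRNAs, -0.63, could hardly move with it, while the median of all miRNAs itself ran from 0.05 to 0.76 under the 4 other scalings. The choice of miRNAs and libraries did move the difference: it was -1.09 with no filter on low counts, -0.504 with a filter at a mean of 100 CPM, which keeps 4 members, and -0.93 to -0.76 with a library left out. The groups did not overlap for 4 members, miR-17-5p, miR-20a-5p, miR-19a-3p and miR-19b-3p, all lower in YAP5SA; over all tested miRNAs 26.6% were so placed lower and 33.9% higher. With library totals or with scaling on abundant miRNAs, the groups stayed apart and lower for miR-17-5p and miR-20a-5p only. They were apart and higher for miR-17-3p and miR-18a-3p. Over all tested miRNAs, library totals placed 11.5% apart and lower and 50% apart and higher. Scaling on abundant miRNAs so placed 8.64% lower and 56.3% higher.

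With TMM, the miR-17/20a seed showed the widest gap between the groups among the 4 seeds. miR-17-5p, which gives the family its name, had 64 and 71 counts in the YAP5SA libraries, against 155 and 97 counts in the vector libraries. As TMM CPM this was 364 and 371.6 in YAP5SA cells and 819 and 638 in vector cells, or 368 ± 5.69 against 728 ± 128 CPM (SD, n = 2 each). Both YAP5SA libraries lay under both vector libraries. The log2 fold change was -0.99 ± 0.34 (SE), with a 95% interval of -1.77 to -0.20, and it missed the threshold (edgeR adjusted p = 0.087). miR-20a-5p, its neighbour of the same seed, had 30 counts in each YAP5SA library, against 65 and 58 counts in the vector libraries. Its level was 164 ± 9.48 CPM in YAP5SA cells and 362 ± 26.7 CPM in vector cells (SD, n = 2 each), again with no overlap. The log2 fold change was -1.14 ± 0.38 (SE; 95% interval -2.04 to -0.24), and it too missed the threshold (edgeR adjusted p = 0.085).

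The calls on this pair turned on single libraries. Without YAP5SA replicate 1 both were called lower, with adjusted p = 0.048 for miR-17-5p and 0.045 for miR-20a-5p by edgeR, and without YAP5SA replicate 2 with 0.0014 and 0.0044. Without vector replicate 1 the adjusted p was 0.69 and 0.52, and without vector replicate 2 it was 0.49 and 0.504. Each such fit leaves 1 library in a group, assumes that it varies like the other group, and refilters and rescales the table. Both miRNAs had a log2 fold change under 0 in every fit. It ran from -1.57 to -0.31 for miR-17-5p and from -1.64 to -0.46 for miR-20a-5p, with the smallest sizes under scaling on abundant miRNAs. The log2 fold changes of miR-19a-3p and miR-20a-3p were also under 0 in every fit that tested them. Summed over the miR-17/20a seed, the level was 534 and 529 CPM in YAP5SA cells, against 1162 and 1019 CPM in vector cells. The log2 ratio was -1.04. Library totals gave -0.52 and scaling on abundant miRNAs gave -0.35.

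The miR-19 seed, known as the main oncogenic part of the cluster in mouse lymphoma, was counted with few reads. miR-19a-3p had 8 and 6 counts in the YAP5SA libraries, against 13 and 14 counts in the vector libraries, or 45.4 and 31.4 CPM against 68.7 and 92.03 CPM. The groups did not overlap, and the log2 fold change was -1.05 ± 0.50 (SE; edgeR adjusted p = 0.20). Pooled over libraries its count ratio was 0.482 after scaling, with an exact binomial 95% interval of 0.234 to 0.952 that covers counting error only. miR-19b-3p had 20 and 25 counts in the YAP5SA libraries, against 27 and 32 counts in the vector libraries, or 114 and 131 CPM against 142.7 and 210 CPM. Its highest YAP5SA library lay close under its lowest vector library. The log2 fold change was -0.52 ± 0.45 (SE; edgeR adjusted p = 0.47), and it turned to 0.14 with scaling on abundant miRNAs. Summed over the seed the level was 159 and 162 CPM in YAP5SA cells, against 211 and 302.4 CPM in vector cells, a log2 ratio of -0.68. Library totals gave -0.15 and scaling on abundant miRNAs gave -0.0050.

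miR-18a-5p, whose seed stands alone in the cluster, had 15 and 10 counts in the YAP5SA libraries, against 15 and 12 counts in the vector libraries. This was 85.2 and 52.3 CPM against 79.3 and 78.9 CPM, so the groups overlapped. The log2 fold change was -0.21 ± 0.50 (SE), and its 95% interval of -1.37 to 0.96 leaves room for a change of either sign. Library totals gave 0.32 and scaling on abundant miRNAs gave 0.48.

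miR-92a-3p, known in endothelium as a brake on vessel growth, had 1037 and 623 counts in the YAP5SA libraries, against 799 and 873 counts in the vector libraries. Its level was 5890 and 3260 CPM in YAP5SA cells and 4221 and 5738 CPM in vector cells. YAP5SA replicate 1 was the highest of the 4 libraries and YAP5SA replicate 2 the lowest, so both vector libraries lay between them. The log2 fold change was -0.12 ± 0.35 (SE; 95% interval -0.94 to 0.70; adjusted p = 0.84, edgeR). Library totals gave 0.47, scaling on abundant miRNAs 0.599 and the filter at a mean of 100 CPM 0.34. With at least 623 reads in each library, counting error was small beside this spread between replicates.

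**Figure D2:**
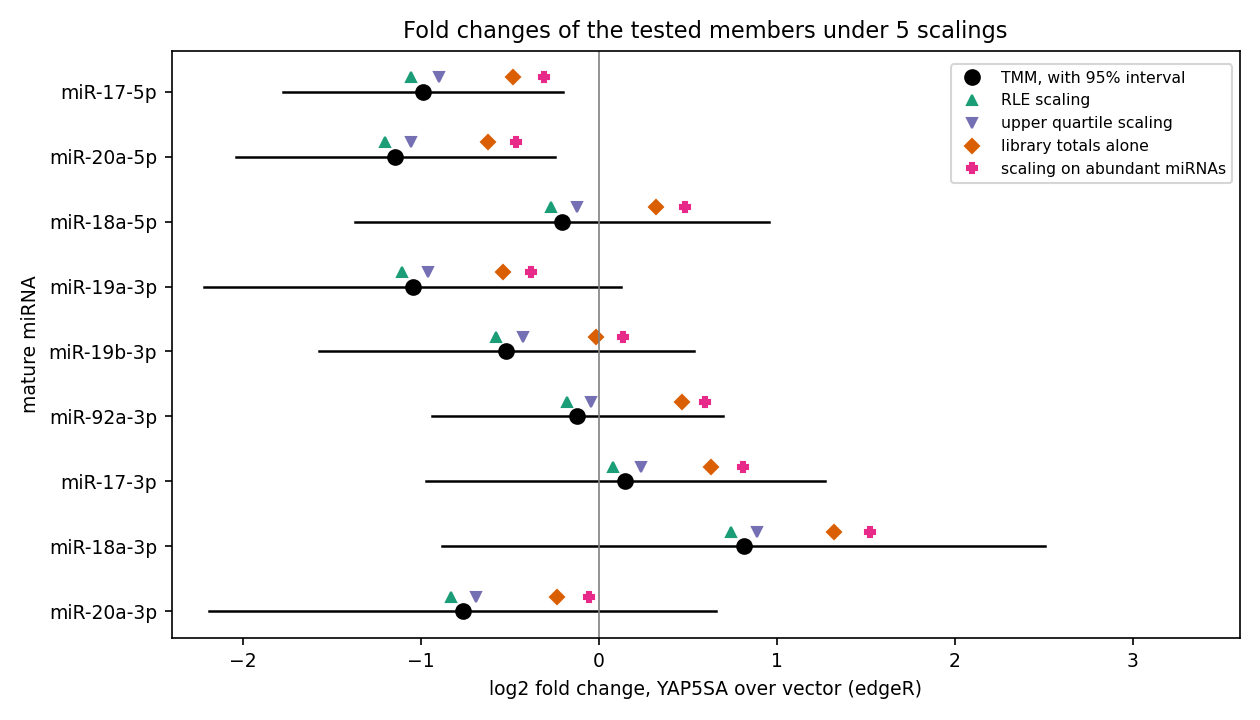
Log2 fold change of the 9 tested members, YAP5SA over vector, from edgeR with TMM (black, 95% interval) and 4 other scalings (coloured). The values of miR-17-5p, miR-20a-5p, miR-19a-3p and miR-20a-3p stay under 0 under all 5 scalings, and those of miR-17-3p and miR-18a-3p stay over 0. Those of miR-18a-5p, miR-19b-3p and miR-92a-3p lie on either side of 0.

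Ratios of members within 1 library do not depend on the scaling. miR-92a-3p made up 88.3% of the cluster's guide counts in YAP5SA replicate 1 (exact binomial 95% interval 86.4 to 90.1) and 81.4% in YAP5SA replicate 2 (78.5 to 84.1). In the vector libraries it made up 74.4% (71.7 to 76.98) and 80.4% (77.9 to 82.7). Both YAP5SA shares were above both vector shares, but the intervals of YAP5SA replicate 2 and vector replicate 2 overlapped. The miR-17/20a seed took 8.01% and 13.2% of the guide counts in the YAP5SA libraries, against 20.5% and 14.3% in the vector libraries. The shares of the other seeds overlapped between the groups for miR-18a, at 1.28% and 1.31% in YAP5SA against 1.40% and 1.10% in vector cells, and for miR-19, at 2.39% and 4.05% in YAP5SA against 3.72% and 4.24% in vector cells.

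**Figure D3:**
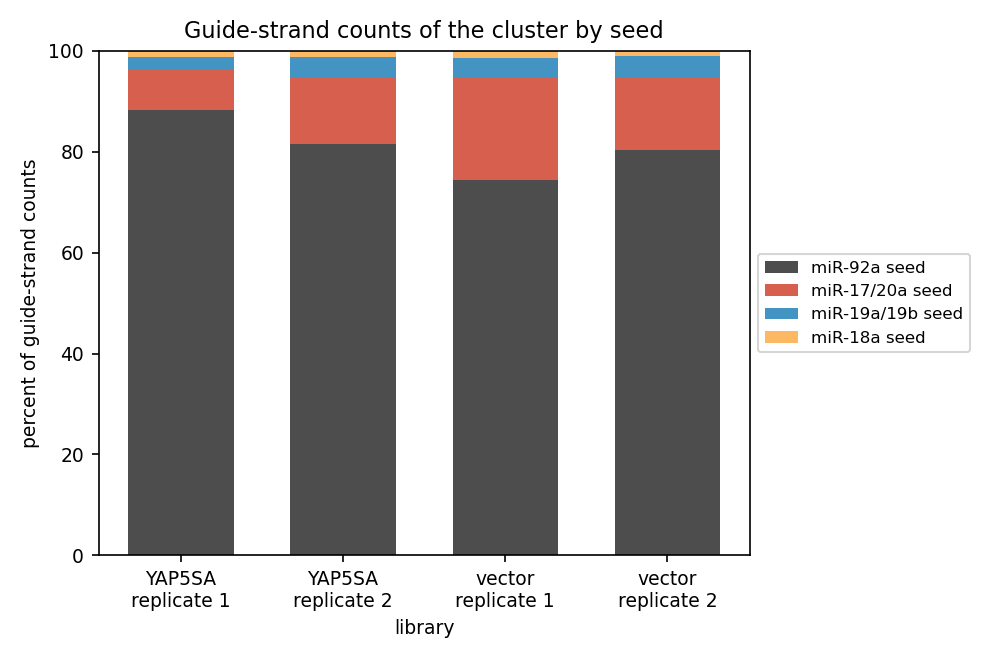
Share of the cluster's guide-strand counts held by each seed group in each library, in percent. miR-92a-3p holds 88.3% and 81.4% in the YAP5SA libraries and 74.4% and 80.4% in the vector libraries, and the miR-17/20a seed is the next largest part.

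As a ratio, miR-92a-3p had 7.57 and 4.39 reads for each read of the other 5 guides in the YAP5SA libraries, against 2.91 and 4.099 in the vector libraries. The exact permutation p of this difference was 0.33 (two-sided), the smallest that 2 libraries against 2 can give. The mean log2 ratio was 0.74 higher in YAP5SA, or 0.35 without YAP5SA replicate 1 and 1.13 without YAP5SA replicate 2. Set against miR-17-5p alone, the ratio overlapped between the groups, at 16.2 and 8.77 in YAP5SA and 5.15 and 9.0 in vector cells. Set against miR-20a-5p alone it was apart, at 34.6 and 20.8 in YAP5SA and 12.3 and 15.1 in vector cells. By contrast, the pair of the miR-17 seed kept a similar balance, with 0.469 and 0.423 reads of miR-20a-5p for each read of miR-17-5p in YAP5SA cells and 0.419 and 0.598 in vector cells. In all 16 such ratios were computed, 15 of them with a value in every library. The lowest exact permutation p was 0.5 after Benjamini-Hochberg adjustment over those 15. With 2 libraries against 2 this could not have fallen under 0.05, so it decides nothing about any ratio.

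None of the passenger strands tested passed. Of the 4 passenger members 3 were tested, and the groups overlapped for each of the 3. miR-17-3p had 9 and 10 counts in the YAP5SA libraries, against 10 and 6 counts in the vector libraries, with a log2 fold change of 0.15 ± 0.48 (SE; edgeR adjusted p = 0.87). miR-18a-3p had 19 and 14 counts in YAP5SA, against 16 and 2 counts in vector cells, with a log2 fold change of 0.81 ± 0.72 (SE; edgeR adjusted p = 0.49). That value rests on vector replicate 2: without it the log2 fold change was -0.30, and without vector replicate 1 it was 2.39. miR-20a-3p had 13 and 6 counts in the YAP5SA libraries, against 22 and 9 counts in the vector libraries, with a log2 fold change of -0.76 ± 0.61 (SE; edgeR adjusted p = 0.44). miR-92a-1-5p, left out of the test, had 11 and 7 counts in YAP5SA and 11 and 5 counts in vector cells. The summed passenger level was 295 and 193.6 CPM in YAP5SA cells and 312 and 144.6 CPM in vector cells. The libraries of the groups were interleaved.

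How strongly a hairpin favours its guide differed widely along the transcript. The hairpins of MIR18A (chr13:91350751-91350821) and MIR92A1 (chr13:91351314-91351391), both on the forward strand of GRCh38.p14, are shown as the least and the most one-sided among the 4 hairpins with both arms among the members. Capitals mark the 2 mature arms, the 5p arm first.
MIR18A: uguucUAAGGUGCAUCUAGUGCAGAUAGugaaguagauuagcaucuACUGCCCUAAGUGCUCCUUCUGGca
MIR92A1: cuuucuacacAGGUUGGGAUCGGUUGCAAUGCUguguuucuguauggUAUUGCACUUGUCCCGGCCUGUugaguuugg
For each read of miR-92a-1-5p there were 94.3 and 89.0 reads of miR-92a-3p in the YAP5SA libraries and 72.6 and 175 in the vector libraries, a ratio that includes the miR-92a-3p of chromosome X. For MIR18A there were 0.789 and 0.714 reads of the 5p arm for each read of the 3p arm in YAP5SA cells and 0.938 and 6.0 in vector cells, so the arm usually called the passenger was read more often in 3 of 4 libraries.

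In the hairpin of MIR17 the arms were less unequal in YAP5SA cells, with 7.11 and 7.10 reads of miR-17-5p for each read of miR-17-3p, against 15.5 and 16.2 in vector cells. Each exact binomial 95% interval overlapped those of the other group, from 3.52 to 16.3 in YAP5SA replicate 1 and from 8.21 to 32.96 in vector replicate 1. The same order held for MIR19A, at 0.80 and 0.667 reads of miR-19a-3p for each read of miR-19a-5p in YAP5SA cells and 2.60 and 3.50 in vector cells. miR-19a-5p is not a member; it had 10 and 9 counts in the YAP5SA libraries, against 5 and 4 counts in the vector libraries. The last arm, miR-19b-1-5p, had 2 and 8 counts in YAP5SA cells, against 2 and 0 counts in vector cells, where a count of 0 allows up to 19.7 CPM. For MIR20A the ratios overlapped, at 2.31 and 5.0 in YAP5SA and 2.95 and 6.44 in vector cells. Low counts also moved with the group over the whole table: those whose mean count was under 20 held 10.5% and 5.56% of the YAP5SA counts, against 3.41% and 3.15% of the vector counts. The part of that shift in the arm ratios was not tested.

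**Figure D4:**
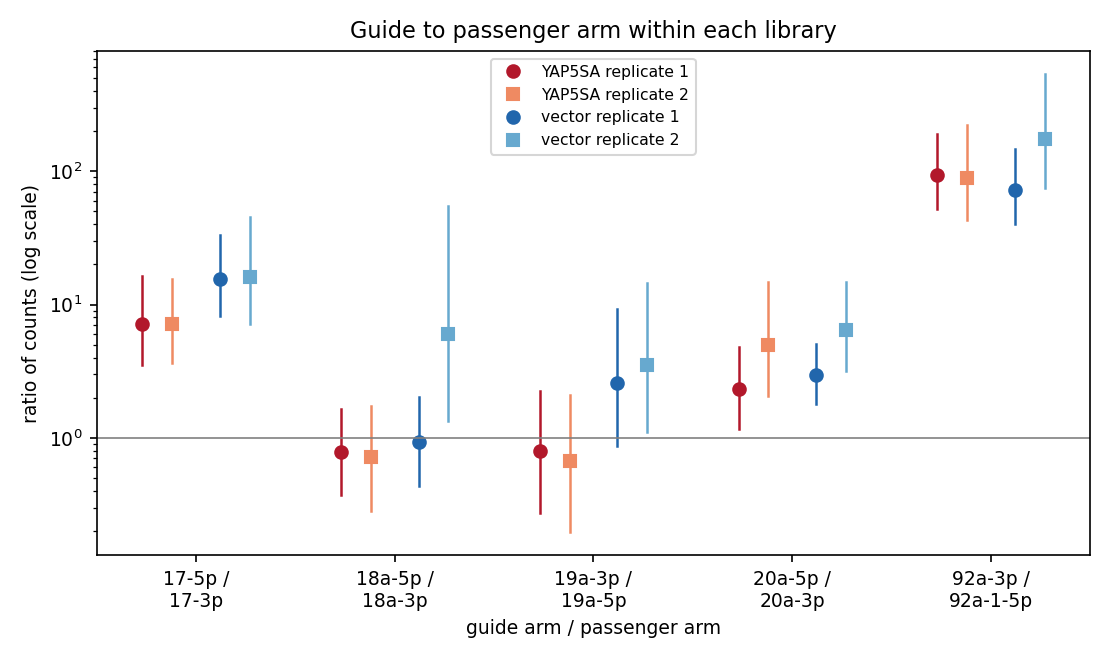
Reads of the guide arm for each read of the passenger arm, per hairpin and library, on a log axis with exact binomial 95% intervals; MIR19B1 is left out because vector replicate 2 had 0 reads of its passenger. The YAP5SA points of MIR17 (7.11 and 7.10) lie under the vector points (15.5 and 16.2), with overlapping intervals.

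The cluster has a pair of paralogs, the miR-106a cluster on chromosome X and the miR-106b cluster in an intron of MCM7 on chromosome 7, and 13 further miRNAs of the table carry one of its guide seeds. Of the 16 paralog arms 8 were tested, and 0 passed edgeR's test in either direction, with 4 log2 fold changes under 0 and 4 over 0. At an unadjusted p under 0.05 there was 1 lower and 1 higher. Of the 13 same-seed miRNAs 6 were tested, and 1 passed, lower. The tested arms miR-25-3p, miR-93-5p and miR-106b-5p are counted in both lists. Over all 602 miRNAs tested, 3.49% passed lower and 11.8% higher, and 11.5% and 21.8% had an unadjusted p under 0.05. The mature sequences of those compared by value are shown with the seed in capitals, since they are what the cluster's guides share with them.
miR-106a-5p: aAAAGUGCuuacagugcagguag
miR-93-5p: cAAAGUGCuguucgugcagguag
miR-106b-5p: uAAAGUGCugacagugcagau
miR-25-3p: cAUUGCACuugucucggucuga
miR-92b-3p: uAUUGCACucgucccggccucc
miR-32-5p: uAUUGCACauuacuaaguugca

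Among the carriers of the miR-17 seed, miR-93-5p had 63 and 67 counts in the YAP5SA libraries, against 120 and 97 counts in the vector libraries. Its log2 fold change of -0.84 ± 0.33 (SE; edgeR adjusted p = 0.12) lay near those of miR-17-5p and miR-20a-5p. miR-106b-5p, cut from the same transcript as miR-93-5p, had 18 and 22 counts in YAP5SA cells, against 17 and 19 counts in vector cells, with a log2 fold change of 0.03 ± 0.48 (SE). miR-106a-5p differs from miR-17-5p by C1A alone, so reads could be split between them. It had 13 and 9 counts in the YAP5SA libraries and 9 counts in each vector library, too few to test and far under those of miR-17-5p. miR-20b-5p had 14 and 5 counts in YAP5SA cells, against 2 and 1 counts in vector cells, and miR-18b-5p had 10 and 7 counts in YAP5SA cells, against 3 and 0 counts in vector cells. Both miR-20b-5p and miR-18b-5p, which are X-linked, had more reads in each YAP5SA library than in either vector library, and neither passed the filter for testing. These 2 were named after their values were seen. In the same cluster miR-363-3p, also untested and named after its values were seen, was higher in both YAP5SA libraries. It had 6 and 3 counts there, against 1 count in each vector library. By contrast miR-20b-3p overlapped between the groups, with 7 and 8 counts in YAP5SA cells against 3 and 12 in vector cells. So did miR-18b-3p, with 1 and 3 counts in YAP5SA cells against 3 and 1 in vector cells. Both miR-20b-3p and miR-18b-3p were also named after their values were seen. The larger share of rare miRNAs in the YAP5SA libraries, given above for the arm ratios, touches these counts too, and its part was not tested.

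Among the carriers of the miR-92a seed, miR-32-5p was the miRNA that passed, from an intron of TMEM245 on chromosome 9. It had 5 and 6 counts in YAP5SA cells, against 25 and 20 counts in vector cells, with a log2 fold change of -2.11 ± 0.50 (SE; edgeR adjusted p = 0.033). miR-25-3p was nearly as abundant as miR-92a-3p, with 393 and 678 counts in the YAP5SA libraries, against 881 and 717 counts in the vector libraries, and a log2 fold change of -0.70 ± 0.30 (SE; edgeR adjusted p = 0.16). For each read of miR-92a-3p there were 0.379 and 1.09 reads of miR-25-3p in YAP5SA cells and 1.10 and 0.821 in vector cells. YAP5SA replicate 1 stood apart in this ratio. miR-92b-3p had 78 and 56 counts in YAP5SA cells, against 77 and 48 counts in vector cells (log2 fold change 0.02 ± 0.39 SE). The one tested relative of the miR-18a seed, miR-4735-3p, had 20 and 14 counts in YAP5SA cells, against 15 and 14 counts in vector cells. No other miRNA of the table carried the miR-19 seed.

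**Figure D5:**
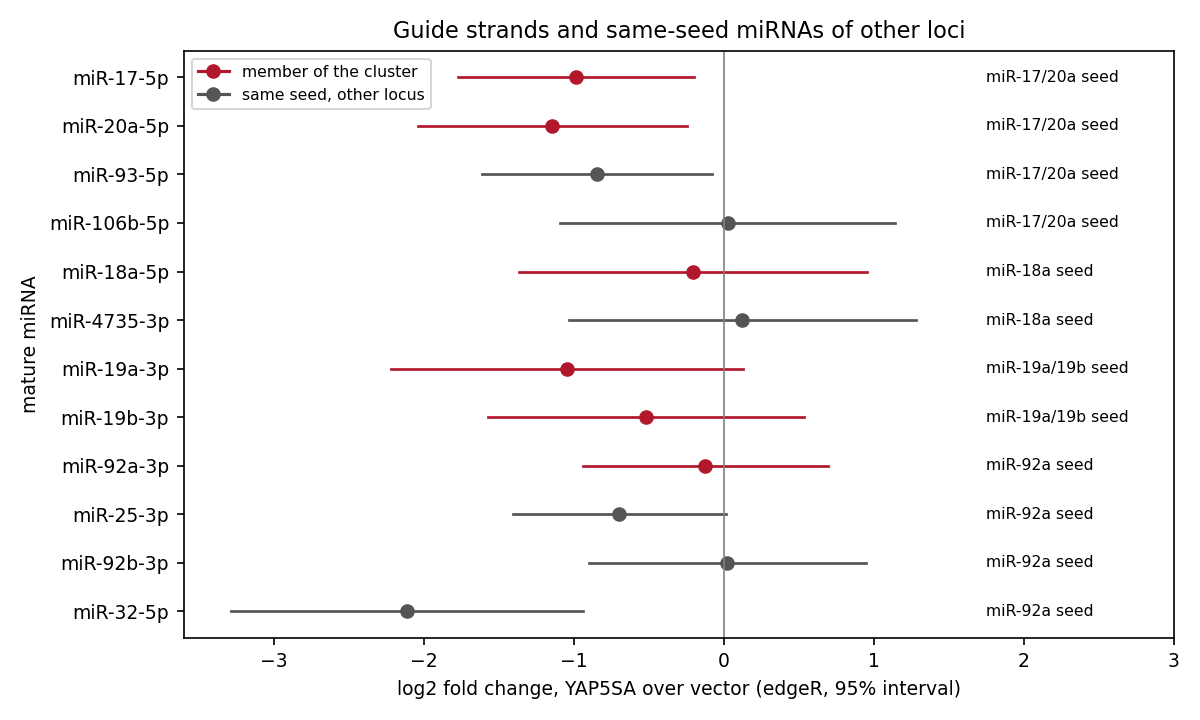
Log2 fold change, YAP5SA over vector, with 95% intervals from edgeR, for the 6 guide strands (red) and the tested miRNAs of other loci with the same seed (grey). Within the miR-17 and miR-92a seeds the values range from -1.14 to 0.03 and from -2.11 to 0.02, and only miR-32-5p passed the test.

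Of the other arms of the paralogs, miR-106b-3p had a log2 fold change of -0.38 ± 0.28 (SE; edgeR adjusted p = 0.40). In YAP5SA cells miR-93-3p had 26 and 31 counts, against 9 and 8 counts in vector cells, and its log2 fold change was 1.62 ± 0.49 (SE; edgeR adjusted p = 0.061). miR-93-3p and miR-93-5p thus had log2 fold changes of opposite sign. miR-25-5p had 13 and 10 counts in YAP5SA cells, against 10 counts in each vector library. miR-363-5p averaged 1684 CPM over the libraries, while miR-363-3p, the arm with the miR-92a seed, averaged 15.4 CPM.

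A related but different seed was far more abundant by reads. Bases 2 to 8 of miR-372, named here after its values were seen, equal bases 3 to 9 of miR-17-5p, the same letters shifted by 1 base, so miR-372 does not carry the miR-17 seed. For each read of miR-17-5p and miR-20a-5p together there were 422 and 671 reads of miR-372 in the YAP5SA libraries, against 282 and 369 reads in the vector libraries.

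The pattern over the 4 libraries most like that of the guides was sought among the 313 other tested miRNAs that averaged 100 CPM or more. The measure was the Euclidean distance between log2 CPM profiles, each centred on its own mean, and the average centred profile of the 6 guides. That average was -0.17 and -0.46 in the YAP5SA libraries and 0.22 and 0.41 in the vector libraries. The nearest were miR-185-5p at a distance of 0.109, miR-769-5p at 0.169, miR-335-3p at 0.170, miR-423-5p at 0.181 and miR-3184-3p at 0.188, against a median of 0.899 over the 313. miR-3184 lies opposite miR-423, and their counts cannot be told apart without strand. The distance of the guides themselves from their average ran from 0.298 for miR-19a-3p to 0.634 for miR-92a-3p. The 5 nearest were picked for their small distance and the guides form the average, so the guides cannot be judged against them.

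The authors' deposited table gave fold changes of its own normalized counts, YAP5SA over vector. There, 8 of the 10 members had a fold change under 1, and 3 had p under 0.05 and were lower, beside 5.05% of all 2039 miRNAs lower and 4.27% higher at that p in the authors' deposited table. These were miR-20a-5p (fold change 0.462, p = 0.0037), miR-19a-3p (0.347, p = 0.022) and miR-18a-5p (0.626, p = 0.032) in the authors' deposited table, from a test the sources used here do not name. The authors' deposited table gave miR-17-5p a fold change of 0.615 (p = 0.071) and miR-92a-3p one of 1.39 (p = 0.14). For miR-92a-3p this is above 1, whereas edgeR on TMM counts gave a log2 fold change of -0.12, and neither passed its test.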

How the data were processed

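Per the labels' protocols, total RNA of HFE-145 cells (easy-BLUE) went into small RNA libraries with an NEB kit. The authors deposited 1 table; its raw counts are whole reads per mature miRNA, per the file headers. Per the file headers, the deposited log2 values are of normalized read counts, with no method stated. Per the same headers, the fold change (a ratio) and the p-value are from the authors. The submitters' processing notes name FastQC and hg19; not given in the sources used here: aligner, strand use, annotation version. In all it holds 2039 miRNAs; 3 lines without a name were left out.

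Counts were tested with edgeR 4.0.16 (R 4.3.3), by its quasi-likelihood test with TMM, default filter and group as the term, fitted on the whole table with Benjamini-Hochberg adjustment at 0.05. The filter kept 602 miRNAs with 96.9% of counts. The SE is the log2 fold change over the square root of F. Log2 CPM used a prior count of 2. Intervals of ratios and shares are exact binomial 95%, and cover counting error only, since no molecular identifiers were used; a floor is 3 counts. Alternatives were other scalings, filters, a replicate block, each library left out, DESeq2 1.42.0 and limma 3.58.1 on the authors' log2 values. The fits were tested on simulated data. All members were named. Relatives were named from 20 CPM, up to 10 by mean. Beyond that, miR-106a-5p, miR-20b-5p, miR-20b-3p, miR-18b-5p, miR-18b-3p and miR-363-3p were named after their values were seen. Members and lists were chosen with earlier results of these data known. Replicate deviations of the 2 groups had a correlation of 0.016 over miRNAs, so shared replicate numbers were not taken as pairs. Python 3.11.15, SciPy 1.17.1 and matplotlib 3.10.9 made ratios and figures.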

Additional observations from a re-analysis of the deposited data

How the results depend on the processing

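The count of members called stayed at 0 under every scaling, filter and test tried with all 4 libraries, and ran from 0 to 2 with a library left out. The median log2 fold change of the tested members was -0.014 with library totals and 0.14 with scaling on abundant miRNAs. With a library left out it ran from -0.71 to -0.62. Under library totals and scaling on abundant miRNAs the median over all tested miRNAs was 0.61 and 0.76. The member median less that of all miRNAs was then -0.62 and -0.63. With those 2 scalings the summed level of the seed groups, as log2 ratios, was -0.52 and -0.35 for miR-17/20a, 0.37 and 0.52 for miR-18a, -0.15 and -0.0050 for miR-19, and 0.47 and 0.599 for miR-92a, and the passenger sum was 0.83 with the second. With a library left out these ratios ran from -1.59 to -1.14, -0.69 to -0.45, -1.25 to -0.76, -0.71 to -0.30 and, for the passengers, -0.75 to 0.41. The ratio of miR-92a-3p to the other guides ran from 0.35 to 1.13, an alternative chosen after seeing the data, as was the count of groups apart under each scaling. The table's 92 calls (71 higher, 21 lower) became 159 (147 and 12) with library totals, 157 (152 and 5) with scaling on abundant miRNAs, 48 with no filter, 26 with the 100 CPM filter, 54 with DESeq2 and 0 with limma on the authors' values (228 at an unadjusted p under 0.05); with a library left out they ran from 1 to 283. Signs turned for miR-18a-5p (0.32 and 0.48) and miR-92a-3p (0.47 and 0.599) with library totals and scaling on abundant miRNAs, and for miR-19b-3p (0.14) with the second. For miR-92a-3p they also turned with the 100 CPM filter (0.34) and on the authors' values (0.33). For miR-17-3p they turned with no filter (-0.29), on the authors' values (-0.58), and without vector replicate 2 (-0.396) or YAP5SA replicate 2 (-0.43), its values without a library running from -0.43 to 0.073, and for miR-18a-3p without vector replicate 2 (-0.30, within a range of -0.30 to 2.39). The causes were not tested. The replicate block called 136 miRNAs and 0 members, with a member median of -0.51, and changed no member's call. Members under 100 CPM rest on 22 reads or fewer a library, which limits what can be seen of them.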
